A study of Homo sapiens with 6 samples.

Results

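The genes described here are 10 genes of cell adhesion and of the epithelial-mesenchymal transition (EMT): the cadherins CDH1 and CDH2, the adhesion molecule EPCAM, the catenins CTNNB1 and CTNND1, and the transcription factors SNAI1, SNAI2, TWIST1, ZEB1 and ZEB2. They were chosen by name, and each matched 1 of the 58721 genes of the count table by its identifier in GENCODE release 29. All 10 were among the 14180 genes tested. Expression was read from 6 libraries of cytoplasmic, ribosomal RNA-depleted RNA without poly(A) selection. Of these, 3 came from HEK293T cells in which ALKBH5 and FTO had both been knocked out with CRISPR/Cas9, and 3 came from wild type HEK293T cells. Both lines were grown in the same medium, and nothing in the labels says that either was treated.

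HEK293T is a human embryonic kidney line that carries adenoviral genes and the SV40 large T antigen. ALKBH5 and FTO encode enzymes that remove the methyl group of N6-methyladenosine from RNA. The sources used here do not say how many knockout clones were used, so a difference between lines and an effect of the knockout cannot be told apart. The wild type columns were named HEK293G6, a name that the labels do not explain. The libraries held 5634648 to 7551825 gene counts each. Transcripts of both targets were still counted, at lower levels. CPM is the count scaled to the TMM-adjusted library total. FTO averaged 56.1 ± 4.21 CPM in the double knockout and 105 ± 7.83 CPM in wild type (SD, n = 3 each). ALKBH5 averaged 186 ± 0.599 CPM in the double knockout and 245 ± 10.3 CPM in wild type (SD, n = 3 each). FTO overlaps RPGRIP1L on the opposite strand, which had 1450 counts, and the strand setting of the counting is not known.

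Cadherins hold neighbouring cells together through calcium-dependent contacts, and their tails bind catenins, which link them to actin and set how long they stay at the membrane. In an epithelial-mesenchymal transition, cells lower E-cadherin (CDH1), often raise N-cadherin (CDH2), and loosen their junctions. Factors of the SNAI, TWIST and ZEB families bind E-box motifs in the promoters of epithelial genes, CDH1 among them, and repress them. Kidney tubule cells use both cadherins, and the embryonic kidney forms by the reverse process, in which mesenchyme becomes epithelium.

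A promoter window of CDH2 is shown because CDH2 rose, and one of ZEB1 because the gene encodes an E-box binder and its start lies inside an antisense RNA that rose. RefSeq windows on GRCh38.p14, from 250 bases before to 50 bases after a start site, were found for 4 of the 10 genes (CDH2, CTNNB1, ZEB1 and ZEB2). They were searched on both strands for the E-box CAGGTG, read as CACCTG on the other strand, and for the CCAAT box, read as ATTGG. In the counts below, E-box means these letters only, and other forms of the motif were not searched. Matches are in capitals, and the 2 motifs do not overlap.
CDH2, chr18:28177081-28177380, minus strand: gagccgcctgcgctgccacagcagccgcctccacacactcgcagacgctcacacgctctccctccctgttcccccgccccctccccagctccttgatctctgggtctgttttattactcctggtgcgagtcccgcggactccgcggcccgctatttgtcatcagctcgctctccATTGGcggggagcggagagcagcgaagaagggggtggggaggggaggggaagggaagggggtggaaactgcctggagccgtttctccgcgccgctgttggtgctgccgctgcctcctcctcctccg
ZEB1, chr10:31318966-31319265, plus strand: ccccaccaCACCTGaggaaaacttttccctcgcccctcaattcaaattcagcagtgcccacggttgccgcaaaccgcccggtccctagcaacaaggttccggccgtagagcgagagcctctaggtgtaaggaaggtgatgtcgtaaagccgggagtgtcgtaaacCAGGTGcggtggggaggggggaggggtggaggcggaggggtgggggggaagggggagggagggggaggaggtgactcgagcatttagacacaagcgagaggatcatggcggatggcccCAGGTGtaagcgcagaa
The CDH2 window held no E-box and 1 CCAAT box, which began 76 bases before the start site. The ZEB1 window held 3 E-boxes, beginning 242 and 85 bases before the start site and at base 34 after it. Among all 35116 windows of the table, 20.6% held at least 1 E-box, 0.635% held at least 3, and 34.6% held at least 1 CCAAT box. ZEB1 has 7 windows, of which 2 held an E-box, and the printed ZEB1 window is the one with the most. The share of single windows with at least 3 is therefore no measure of how rare its count is. Neither of the 2 CDH2 windows nor the single windows of CTNNB1 and ZEB2 held an E-box. These matches describe letters in a window and say nothing of binding.

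The comparison asks which transcripts differ between the double knockout cells and the wild type cells. CDH2, EPCAM and SNAI1 rose in the double knockout, CTNNB1, CTNND1 and SNAI2 fell, and CDH1, TWIST1, ZEB1 and ZEB2 did not pass the test. The calls come from edgeR's quasi-likelihood test, with Benjamini-Hochberg adjustment across the 14180 tested genes and a threshold of 0.05. Among all tested genes 57.1% were called, with 28.6% (4055 genes) higher and 28.5% (4038 genes) lower in the double knockout, so 6 of 10 called members is close to the share in the transcriptome. Scaling by spike-in RNA instead called 2133 genes higher and 4236 lower, with the median of all genes shifted by -0.11 on the log2 scale, and left the same 6 members called. That scale rests on only 316 to 440 spike-in counts per library, so counting error in them enters it. The libraries of the groups did not overlap in the same 6 members, against 60.6% of tested genes. The median log2 fold change (double knockout over wild type) was 0.05 for the 10 genes and 0.01 for all tested genes. EPCAM and SNAI1 passed the low-count filter through the double knockout, where they were high, so their places among the called genes add nothing to the count.

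**Figure D1:**
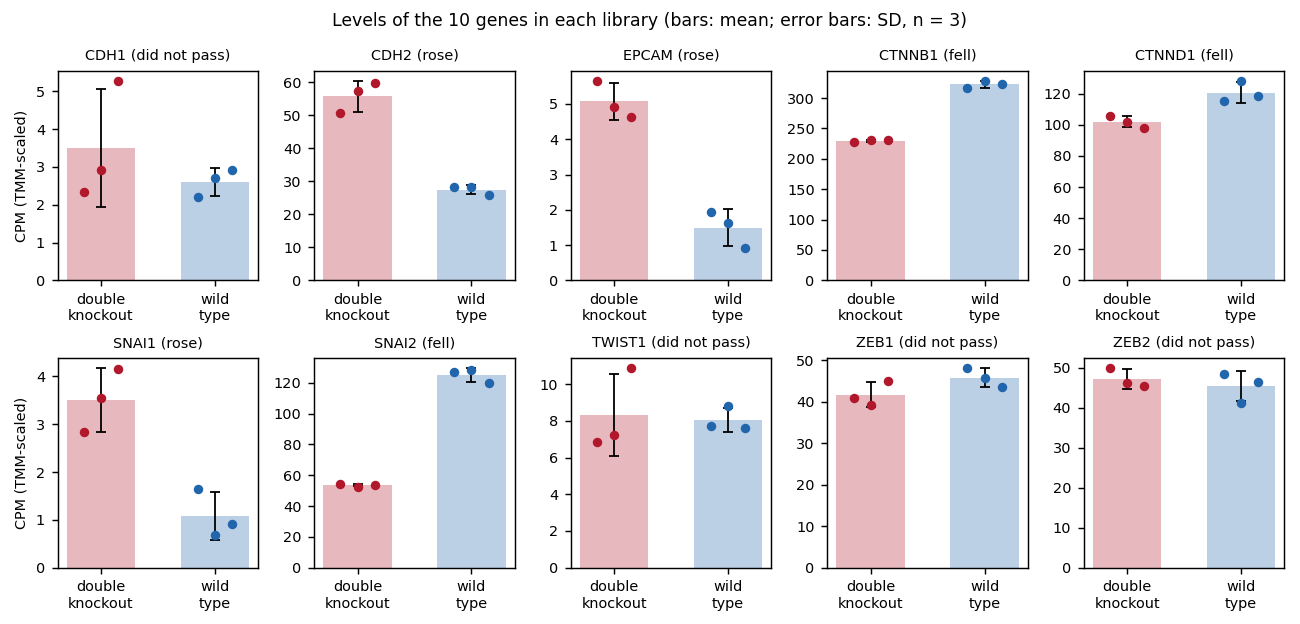
CPM of the 10 genes in each library, with the double knockout on the left and wild type on the right of each panel; points are libraries, bars are means and error bars are SD (n = 3). The groups are fully apart in CDH2, EPCAM, CTNNB1, CTNND1, SNAI1 and SNAI2 and overlap in CDH1, TWIST1, ZEB1 and ZEB2.

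CDH2 encodes N-cadherin, the adhesion molecule of neural and mesenchymal cells. CDH2 (ENSG00000170558.8, hg38 chromosome 18, 27950966 to 28177446) had 50.6, 57.3 and 59.7 CPM in the double knockout replicates, against 28.2, 28.4 and 26.0 CPM in the wild type replicates. Every double knockout library was above every wild type library. CDH2 rose 2.02-fold, a log2 fold change of 1.02 with SE 0.08 and adjusted p = 1.19e-32. The log2 fold change of CDH2 lay just above 1, and it was below 1 with spike-in scaling (0.91) and without double knockout replicate 2 (0.996), double knockout replicate 3 (0.97) or wild type replicate 3 (0.98), always called. It was counted with 1049 reads over the double knockout libraries and 557 over the wild type libraries, so its level was well measured in both.

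CDH1, E-cadherin, holds epithelial cells together and was scarce in both groups. CDH1 (ENSG00000039068.18, chromosome 16, 68737225 to 68835548) had 14, 19 and 33 counts in the double knockout replicates and 16, 20 and 16 counts in the wild type replicates. In CPM these were 2.33, 2.92 and 5.28 in the double knockout and 2.20, 2.72 and 2.90 in wild type, and double knockout replicate 3 stood far above the other 5 libraries, with replicate 1 inside the wild type range. The fitted log2 fold change was 0.44 (SE 0.28, adjusted p = 0.167), and without double knockout replicate 3 it was 0.03 (adjusted p = 0.952). Pooled over libraries, the exact 95% counting intervals of the CDH1 level were 2.72 to 4.48 CPM in the double knockout and 1.93 to 3.38 CPM in wild type, and these overlap. Such intervals cover counting error only.

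Per exon length, CDH2 outweighed CDH1 in all 6 libraries. The ratio of CDH2 to CDH1 in TPM was 24.3, 21.9 and 12.6 in the double knockout replicates and 14.3, 11.7 and 10.0 in the wild type replicates. The lowest double knockout ratio lay inside the wild type range, and a two-sided exact permutation test gave p = 0.2. With 3 against 3 libraries no p below 0.1 is possible, so this test cannot decide at 0.05.

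EPCAM encodes an adhesion molecule of simple epithelia that is also used as an epithelial marker. EPCAM (ENSG00000119888.10, chromosome 2, 47345158 to 47387601) had 34, 32 and 29 counts in the double knockout replicates and 14, 12 and 5 counts in the wild type replicates. These equal 5.66, 4.93 and 4.64 CPM in the double knockout and 1.92, 1.63 and 0.908 CPM in wild type. Every double knockout library was far above every wild type library. EPCAM rose 3.27-fold, a log2 fold change of 1.71 with SE 0.29 and adjusted p = 2.64e-08. It passed the low-count filter through its double knockout libraries. The filter asks for 1.59 CPM in at least 3 libraries, on library totals without TMM scaling. On that scale only 1 wild type library reached it, and replicate 2, at 1.63 CPM with TMM scaling, did not. Even so the level of EPCAM stayed low. Its pooled 95% counting interval was 4.10 to 6.19 CPM in the double knockout and 1.05 to 2.18 CPM in wild type.

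CTNNB1 encodes beta-catenin, which binds the cadherin tail and, when it is not degraded, acts with TCF and LEF factors in the nucleus. CTNNB1 (ENSG00000168036.17, chromosome 3, 41194741 to 41260096) had 228, 231 and 231 CPM in the double knockout replicates, against 317, 328 and 324 CPM in the wild type replicates. The replicates of each group lay within a few percent of each other and far from the other group. CTNNB1 fell to 0.712 of its wild type level, a log2 fold change of -0.49 with SE 0.04 and adjusted p = 2.07e-36. It overlaps ULK4 on the opposite strand, which had 595 counts over the 6 libraries, and the sources used here do not give the strand setting of the counting.

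CTNND1 encodes p120-catenin, which binds cadherins near the membrane and slows their removal from it. CTNND1 (ENSG00000198561.13, chromosome 11, 57753243 to 57819546) had 105, 102 and 98.3 CPM in the double knockout replicates and 115, 128 and 118 CPM in the wild type replicates. The groups did not overlap, but they lay close. CTNND1 had a log2 fold change of -0.25 with SE 0.05 and adjusted p = 1.72e-06, a fall about as large as the typical gene of these data, since 49.2% of tested genes had a smaller log2 fold change in size.

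SNAI2 and SNAI1, the zinc finger repressors Slug and Snail, moved in opposite directions. SNAI2 (ENSG00000019549.11, chromosome 8, 48917604 to 48921740) had 54.5, 52.6 and 53.9 CPM in the double knockout replicates, against 127, 128 and 120 CPM in the wild type replicates. The groups were far apart. SNAI2 fell to 0.428 of its wild type level, a log2 fold change of -1.23 with SE 0.06 and adjusted p = 1.32e-77, the smallest p of the 10 genes. SNAI1 (ENSG00000124216.3, chromosome 20, 49982999 to 49988886) had 17, 23 and 26 counts in the double knockout replicates and 12, 5 and 5 counts in the wild type replicates. In CPM SNAI1 had 2.83, 3.54 and 4.16 in the double knockout and 1.65, 0.679 and 0.908 in wild type, with no overlap. SNAI1 rose 3.18-fold, a log2 fold change of 1.67 with SE 0.34 and adjusted p = 5.36e-06. Like EPCAM it passed the low-count filter through its double knockout libraries, with 1 wild type library at the required level.

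Slug remained the more abundant of the pair in each library despite these opposite changes. The ratio of SNAI2 to SNAI1 per exon length was 13.4, 10.3 and 9.0 in the double knockout replicates and 53.6, 131 and 91.7 in the wild type replicates. Every double knockout ratio was below every wild type ratio, which restates the opposite changes of the pair. This ratio was chosen after the values of both genes were seen and carries no test, and SNAI1 had 22 counts over the 3 wild type libraries, where the ratio spread most.

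TWIST1, a basic helix-loop-helix factor of mesoderm and neural crest, did not pass the test. TWIST1 (ENSG00000122691.12, chromosome 7, 19020991 to 19117672) had 6.83, 7.23 and 10.9 CPM in the double knockout replicates and 7.70, 8.83 and 7.62 CPM in the wild type replicates. Double knockout replicate 3 was the highest of the 6 libraries and the other double knockout libraries were the lowest. The fitted log2 fold change was 0.04 (SE 0.17, adjusted p = 0.854), which turned to -0.20 without that library, and to -0.069 with spike-in scaling.

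ZEB1 and ZEB2, large zinc finger homeobox repressors of epithelial genes, were nearly level with each other in CPM and did not pass the test. ZEB1 (ENSG00000148516.21, chromosome 10, 31318495 to 31529814) had 40.8, 39.1 and 45.0 CPM in the double knockout replicates and 48.1, 45.6 and 43.6 CPM in the wild type replicates. Its fitted log2 fold change was -0.14 (SE 0.07, adjusted p = 0.0900), and without double knockout replicate 3, the one library inside the wild type range, it was -0.20 with adjusted p = 0.0323. ZEB2 (ENSG00000169554.19, chromosome 2, 144364364 to 144524583) had 49.95, 46.2 and 45.4 CPM in the double knockout replicates and 48.5, 41.1 and 46.5 CPM in the wild type replicates. Its fitted log2 fold change was 0.06 (SE 0.07, adjusted p = 0.510), and it turned to -0.052 with spike-in scaling. The ratio of ZEB1 to ZEB2 per exon length was 1.84 ± 0.192 in the double knockout and 2.102 ± 0.182 in wild type (SD, n = 3 each; two-sided exact permutation p = 0.2).

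The antisense RNA ZEB1-AS1, which runs from the ZEB1 promoter region on the other strand, did change. ZEB1-AS1 had 9.32, 9.39 and 11.04 CPM in the double knockout replicates and 5.91, 4.89 and 6.90 CPM in the wild type replicates, without overlap between the groups. Its log2 fold change was 0.77, with SE 0.17 and adjusted p = 3.99e-05, a rise. ZEB1-AS1 spans 31206278 to 31320447 on chromosome 10, so the ZEB1 window printed above lies inside it. Since the strand setting is not known, reads of this shared region cannot be assigned to either gene with certainty.

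Among the 10 genes the order of levels per exon length (TPM) differed in part between the groups. In the double knockout CTNNB1 was the highest at 73.8 TPM, then SNAI2 at 55.7, CTNND1 at 36.8, CDH2 at 31.6, ZEB1 at 16.3, TWIST1 at 12.6, ZEB2 at 8.91, EPCAM at 6.37, SNAI1 at 5.25 and CDH1 at 1.78 TPM. In wild type SNAI2 was the highest at 127 TPM, then CTNNB1 at 101, CTNND1 at 42.5, ZEB1 at 17.5, CDH2 at 15.2, TWIST1 at 11.9, ZEB2 at 8.36, EPCAM at 1.82, SNAI1 at 1.58 and CDH1 at 1.29 TPM. SNAI2 thus stood below CTNNB1 in the double knockout and above it in wild type, and CDH2 stood above ZEB1 in the double knockout and below it in wild type. The ranges of the 3 libraries overlapped between ZEB1 and TWIST1 and between EPCAM and SNAI1 in the double knockout, and among EPCAM, SNAI1 and CDH1 in wild type. The remaining neighbours in each order did not overlap. Lengths were those of all annotated exons of a gene together, so a gene that uses a short transcript has a level that is too low.

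**Figure D2:**
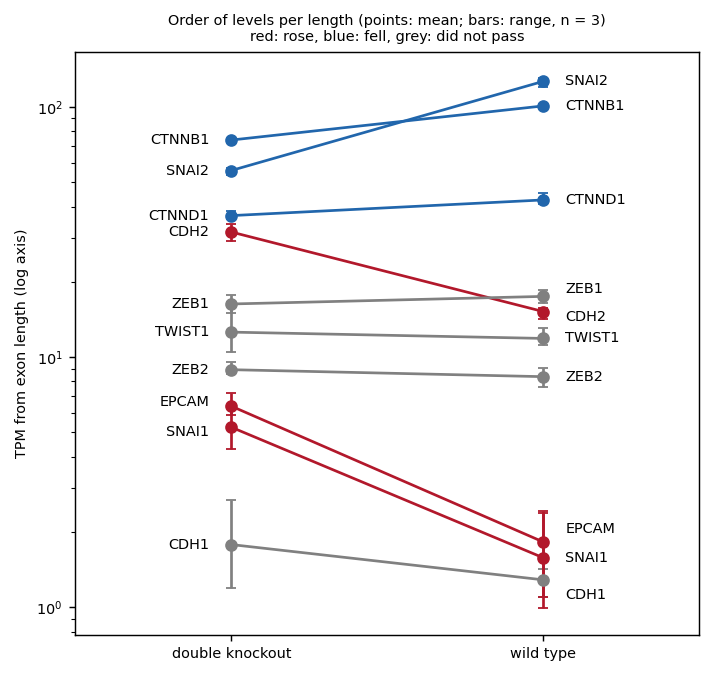
Mean TPM from exon length on a log axis for the 10 genes in the double knockout (left) and wild type (right), with bars for the range of 3 libraries and lines joining the same gene. SNAI2 and CTNNB1 exchange places, as do CDH2 and ZEB1, and CDH1 is the lowest in both groups.

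Since neighbouring genes can move together in a cell line, each gene was set beside the other tested genes within 5 Mb of it. The median log2 fold change of the 63 neighbours of CTNNB1 was -0.53, with 49 fallen and 5 risen, and CTNNB1 itself at -0.49 differed from that median by 0.04. Its overlapping neighbour ULK4 fell by 0.52 and ZNF621, the next tested gene on the other side, fell by 0.81. CTNNB1 therefore moved as its neighbours did, on both sides of it. The part of the region in the fall of CTNNB1 was not tested.

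CDH2 lay in a region that had risen on one side. Of its 30 tested neighbours 19 rose and 2 fell, with a median of 0.35, and CDH2 stood 0.66 above it. On the side of lower coordinates 15 of 19 genes rose and 0 fell (median 0.38), and on the side of higher coordinates 4 of 11 rose and 2 fell (median 0.05). The next tested gene on that second side was the desmosomal cadherin DSC3, which rose by 1.65. Among the 30 neighbours 5 had a higher log2 fold change than CDH2.

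**Figure D3:**
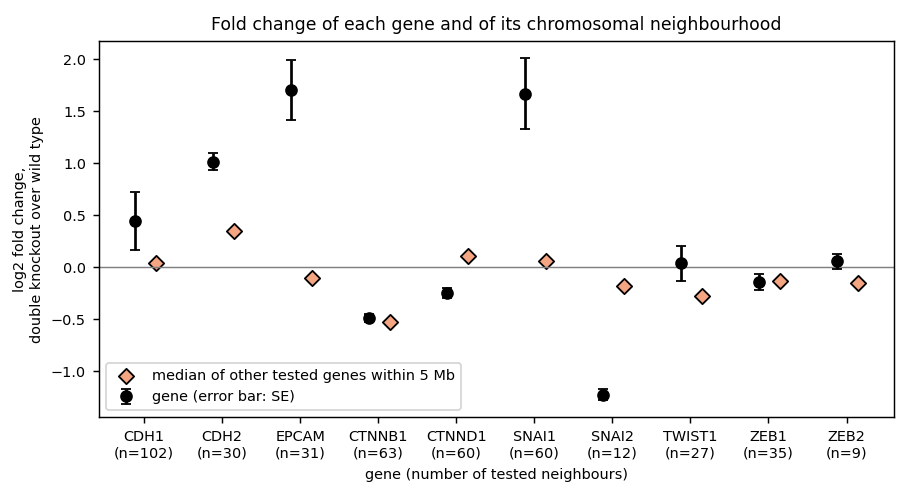
Log2 fold change of each gene (black, error bar SE) and the median log2 fold change of the other tested genes within 5 Mb (diamonds). CTNNB1 and ZEB1 lie on their neighbourhood medians, while EPCAM, SNAI1 and CDH2 lie above and SNAI2 below theirs.

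SNAI2 stood below its neighbourhood median, and EPCAM and SNAI1 stood above theirs. EPCAM and SNAI1 passed the low-count filter through the double knockout, where they were high. Their distances and ranks within their windows are therefore no support for a departure. The 12 tested neighbours of SNAI2 had a median of -0.18, and all 12 had a higher log2 fold change than SNAI2, which stood 1.04 below their median, and 1.88 below it without a low-count filter. The neighbours of EPCAM had a median of -0.10 (31 genes), EPCAM stood 1.81 above it, and 1 of them had a higher log2 fold change. The neighbours of SNAI1 had a median of 0.06 (60 genes), SNAI1 stood 1.61 above it, and none of them had a higher log2 fold change. CTNND1 fell among 60 neighbours of which 25 rose and 7 fell, with a median of 0.11, and only 4 had a lower log2 fold change. TWIST1, at 0.04, lay in a window with a median of -0.28, ZEB1 at -0.14 matched its window median of -0.13, and ZEB2 at 0.06 had a window median of -0.15 from 9 genes. CDH1 lay 0.40 above its window median of 0.04 and 0.0065 above it without double knockout replicate 3. These differences are descriptions and carry no test.

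**Figure D4:**
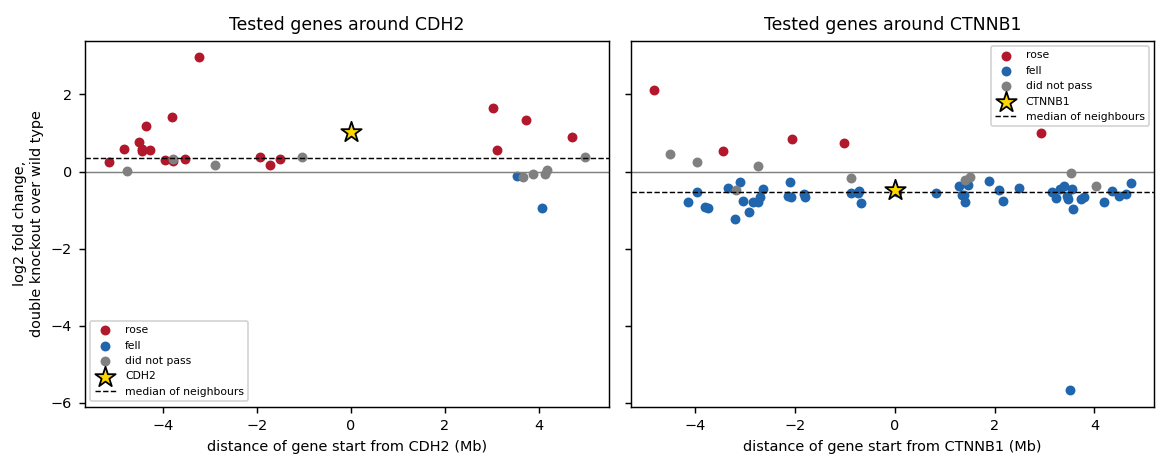
Log2 fold change of the tested genes around CDH2 (left) and CTNNB1 (right) by distance of their start from that of the named gene in Mb, coloured by call, with the named gene as a star and the median of the neighbours as a dashed line. Around CTNNB1 49 of 63 genes fell, with fallen genes on both sides, and around CDH2 the risen genes lie mainly on the side of lower coordinates.

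Genes that work with these 10 were described by lists chosen with earlier results of these data known, as counts beside the 28.6% of all tested genes that rose and the 28.5% that fell. With spike-in scaling fewer members of several lists rose: 5 against 8 other cadherins, 5 against 8 junction partners, 1 against 3 other EMT factors and 6 against 9 epithelial surface genes. Of 38 other cadherin family genes 22 were tested, and 8 rose, 3 fell and 11 did not pass, with a median log2 fold change of -0.03. Of the 22, 5 passed the low-count filter through 1 group, CDH10 and CDH18 among those called. CELSR2, a planar polarity cadherin, rose by 0.80, CDH23, the tip link cadherin of hair cells, rose by 1.02, and the giant cadherin gene FAT1 rose by 0.19, as did its neighbours (median 0.17), a call that was lost with spike-in scaling. FAT4 fell by 0.53 in a window of chromosome 4 with a median of -0.68, CDH10 fell by 1.01 and CLSTN1 by 0.15, the last a call that was lost with DESeq2. CDH10 passed the low-count filter through its wild type libraries, with 27 counts over the double knockout libraries and 59 over the wild type libraries, and its call was lost with DESeq2 and without double knockout replicate 2 (-0.84). CDH3, P-cadherin, which lies beside CDH1 on chromosome 16, rose by 0.91 (SE 0.26, adjusted p = 0.00109), but its groups overlapped and its call was lost without double knockout replicate 3 (0.62). CDH5, CDH6, CDH11 and CDH17 were among the 16 that did not pass the filter, none of which had more than 30 counts over the 6 libraries. CDH23 and CLSTN1 overlap genes on the opposite strand, VSIR with 109 counts and PIK3CD with 389.

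Partners of the cadherins at adherens junctions and desmosomes changed in both directions, and 12 of 15 tested members were called. Of these 8 rose and 4 fell (median 0.21). DSC3, desmocollin of the desmosome, averaged 75.0 ± 2.71 CPM in the double knockout and 23.8 ± 1.26 CPM in wild type (SD, n = 3 each), a rise of 1.65 (SE 0.08, adjusted p = 1.58e-76). JUP, plakoglobin, a relative of beta-catenin that also binds cadherins, averaged 63.4 ± 2.60 CPM in the double knockout and 38.9 ± 3.62 CPM in wild type and rose by 0.71. NECTIN3 fell by 0.94 and AFDN, the actin linker of nectins, fell by 0.62. NECTIN3 lies in a window of chromosome 3 with a median of -0.61 and AFDN in one of chromosome 6 with a median of -0.37, whereas the windows of JUP (0.09) and DSC3 (0.05) were near 0.

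Of 15 further transcription factors associated with EMT 10 were tested, and 3 rose, 5 fell and 2 did not pass (median -0.12). PRRX1, a homeobox factor of limb and craniofacial mesenchyme, averaged 10.5 ± 1.67 CPM in the double knockout and 2.49 ± 0.577 CPM in wild type and rose by 2.04 (SE 0.21, adjusted p = 1.69e-19). TWIST2, the relative of TWIST1, rose by 0.39 and GSC by 0.56, and both calls were lost with spike-in scaling and with DESeq2, that of GSC also without double knockout replicate 2 (0.43), double knockout replicate 3 (0.54) or wild type replicate 1 (0.47). HMGA2 and TCF4 fell by 0.24 and 0.23.

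Of 14 factors that maintain epithelial expression 5 were tested, of which KLF5, GRHL1, FOXA1 and KLF4 passed the low-count filter in both groups and rose. KLF5 averaged 50.4 ± 3.02 CPM in the double knockout and 21.3 ± 2.03 CPM in wild type, and rose by 1.24. The grainyhead factor GRHL1 rose by 1.41, the forkhead factor FOXA1 by 1.71 and KLF4 by 1.42, each without overlap of the groups. FOXA1 overlaps TTC6 on the opposite strand, which had 142 counts. The fifth, GRHL3, passed the filter through its double knockout libraries, where it had 101 counts, against 51 over the wild type libraries, and is named after its values were seen. The other 9, among them GRHL2, OVOL1, OVOL2, ESRP1 and ESRP2, had at most 35 counts over the 6 libraries, and the host gene of the microRNAs miR-200c and miR-141, MIR200CHG, had 1.

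Of 28 epithelial surface, tight junction and polarity genes 13 were tested, and 9 rose, 2 fell and 2 did not pass (median 0.44). The keratin genes KRT18 and KRT8 rose by 0.69 and 0.44, the polarity gene LLGL2 by 0.73 and OCLN, which encodes occludin, by 0.77. SPINT2, a protease inhibitor, fell by 0.81 and MPP5, a polarity scaffold, by 0.19. KRT8 and KRT18 overlap each other on opposite strands, MPP5 overlaps ATP6V1D, which had 2606 counts, and SPINT2, with 168 counts, overlaps PPP1R14A, with 431. Many markers used for epithelium were near 0 in both groups, including KRT19 with 1 count and CLDN3 with 0 over the 6 libraries.

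Of 27 mesenchymal genes 18 were tested, and 8 rose, 7 fell and 3 did not pass (median 0.16). VIM, vimentin, averaged 1157 ± 4.07 CPM in the double knockout and 844 ± 27.1 CPM in wild type and rose by 0.45 (SE 0.03, adjusted p = 1.05e-48), in a window with a median of -0.46. TNC, the matrix protein tenascin C, rose by 3.63 and the integrin gene ITGA5 by 0.47. CD44, a hyaluronan receptor, had 41 counts over the double knockout libraries and 1 over the wild type libraries, a ratio of 44.0 in CPM (95% counting interval 7.48 to 1782). LUM and COL3A1, matrix genes named after their values were seen, had 3 and 13 counts over the double knockout libraries and 52 and 76 over the wild type libraries. Of the 18 tested genes 4 passed the filter through the group where they were high, CD44 and S100A4 through the double knockout and LUM and COL3A1 through wild type, and their calls add nothing to the counts. Epithelial and mesenchymal genes thus each included members that rose, and the lists were not tested against each other.

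**Figure D5:**
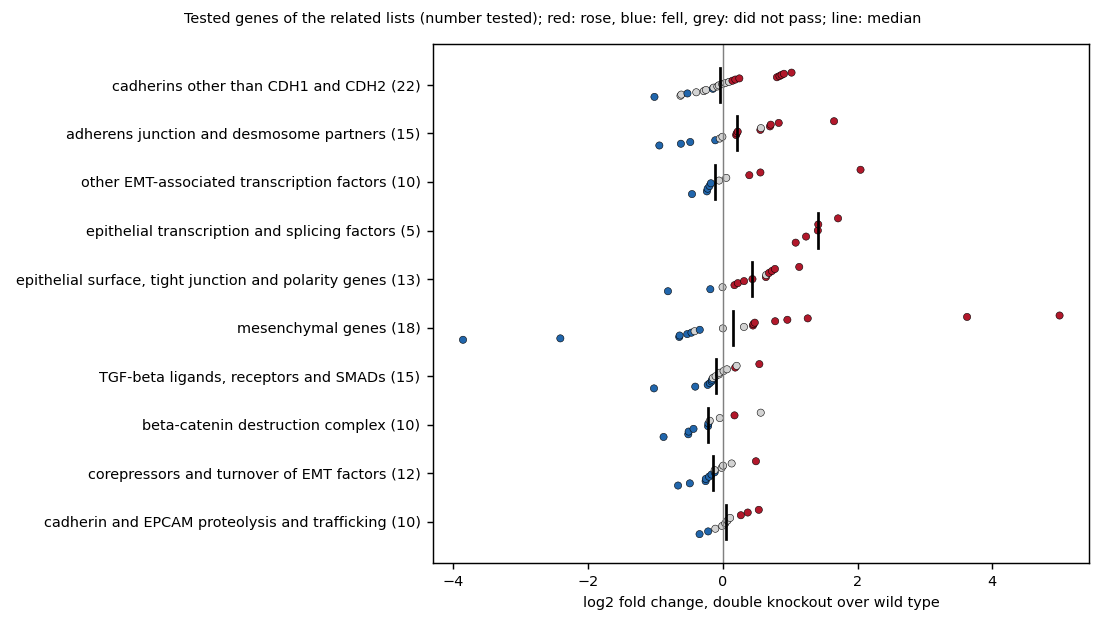
Log2 fold change of every tested gene of the 10 related lists, coloured by call, with the list median as a line and the number tested in parentheses. The epithelial transcription factors KLF5, GRHL1, FOXA1 and KLF4 lie above 1. The highest and lowest mesenchymal genes are CD44 and LUM, which had 1 count in wild type and 3 in the double knockout, so that their fitted values are not reliable sizes.

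Genes that control beta-catenin, EMT factors and cadherin turnover are described next in 4 lists. Of their tested genes 70%, 53.3%, 66.7% and 50% were called, in the order given, against 57.1% of all tested genes. In 3 of the 4 lists more genes fell than rose, and the lists were not tested. In the beta-catenin destruction complex 1 of 10 genes rose, 6 fell and 3 did not pass (median -0.22). GSK3B, the kinase that marks beta-catenin and Snail for degradation, averaged 54.3 ± 0.522 CPM in the double knockout and 99.9 ± 1.53 CPM in wild type and fell by 0.88, in a window of chromosome 3 with a median of -0.51. The ubiquitin ligase subunit gene FBXW11 fell by 0.51 (window median -0.41), AMER1 by 0.51, in a window with a median of 0.18, and the kinase gene CSNK1A1 by 0.21. AXIN1, the scaffold of the complex, rose by 0.17, a call that was lost with spike-in scaling, with DESeq2, and without double knockout replicate 3 (0.13) or wild type replicate 1 (0.15).

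Of 15 TGF-beta ligands, receptors and SMADs, which feed into the SNAI and ZEB genes, 2 rose, 6 fell and 7 did not pass (median -0.11). Among those that fell TGFB2 passed the filter through its wild type libraries, with 31 counts over the double knockout libraries and 68 over the wild type libraries. TGFB1 averaged 26.8 ± 1.05 CPM in the double knockout and 18.5 ± 1.66 CPM in wild type and rose by 0.54, in a window of chromosome 19 with a median of -0.32, and it overlaps genes on the opposite strand that had 19459 counts in all. SMAD3 rose by 0.18, a call lost with spike-in scaling, with DESeq2 and without wild type replicate 2 (0.13). SMAD7, the inhibitory SMAD, fell by 0.41, and the corepressor genes SKI and SKIL fell by 0.17 and 0.22, SKIL in a window of chromosome 3 with a median of -0.71.

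Of 12 corepressors and turnover genes of EMT factors 1 rose, 7 fell and 4 did not pass (median -0.14). HDAC2, a deacetylase recruited by Snail, fell by 0.66 in a window of chromosome 6 with a median of -0.36, SIN3A fell by 0.26 and the demethylase gene KDM1A by 0.20. CTBP1, a corepressor of the ZEB factors, rose by 0.49, as did its window of chromosome 4, with a median of 0.49. CTBP1 overlaps CTBP1-DT on the opposite strand, which had 1499 counts. Of 10 genes of cadherin and EPCAM proteolysis and trafficking 3 rose, 2 fell and 5 did not pass (median 0.05). FURIN, which cuts the cadherin propeptide, rose by 0.53, ADAM15 by 0.37 and the gamma-secretase subunit gene NCSTN by 0.27, the last a call lost with spike-in scaling, in a gene that overlaps COPA with 9982 counts. The sheddase genes ADAM10, which cuts cadherins, and ADAM17, which cuts EPCAM, fell by 0.35 and 0.22.

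Markers of cell types were set beside these values, as counts beside the 28.6% of all tested genes that rose and the 28.5% that fell. Of 13 kidney lineage markers 8 were tested, of which 4 rose, 1 fell and 3 did not pass, and their summed level was 85.1 to 97.6 CPM in the double knockout and 72.8 to 74.7 CPM in wild type. The nephric gene PAX8 had no counts, and the tubule genes UMOD and AQP2 had 1 each over the 6 libraries. Of 11 neuronal markers 6 were tested and 5 rose. MAP2 passed the filter through the double knockout, so its place in these counts adds nothing to them. The summed levels of the 11 markers were 586 to 616 CPM in the double knockout and 324 to 352 CPM in wild type. Of 10 fibroblast markers 3 were tested, all also in the mesenchymal list: COL1A1, which fell by 0.34, and COL3A1 and LUM, which passed the filter through the wild type libraries, where they were high. The 10 markers had summed levels of 10.8 to 13.3 CPM in the double knockout and 17.4 to 20.6 CPM in wild type, while COL1A2 had no counts. Endothelial and haematopoietic markers summed to at most 3.04 CPM in any library. The part of these markers in the changes of CDH2, EPCAM and SNAI1 was not tested. In bulk RNA, more cells of a kind and more RNA per cell cannot be told apart.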

How the data were processed

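The submitters' processing notes name cutadapt 2.10, STAR 2.7.6a, featureCounts and the build hg38, without giving their roles. The kit was directional per the labels' protocols, and the sources used here do not give the strand setting, the handling of multi-mapping reads or the featureCounts version. The authors deposited raw counts per gene, with no normalisation. The 58721 gene identifiers matched GENCODE release 29, and 4 spike-in rows were left out of library sizes and tests.

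Genes passed filterByExpr (minimum count 10, minimum total 15), libraries were scaled by TMM, and glmQLFit (robust) and glmQLFTest of edgeR 4.0.16 in R 4.3.3 compared the double knockout with wild type over 14180 genes, without a block. p-values are two-sided and adjusted by Benjamini and Hochberg with a threshold of 0.05. SE is the size of the log2 fold change divided by the square root of the quasi-likelihood F statistic. The common biological coefficient of variation was 2.40%. CPM use TMM-scaled library sizes, and TPM use the union of exons of the GENCODE basic annotation. A count of 0 allows up to 3 counts, 0.407 to 0.545 CPM. Total counts of 5634648 to 7551825 per library set the precision, and counting intervals are exact 95% Poisson intervals. The labels call the replicates independent biological ones, without saying whether they were separate cultures, so p-values measure the spread between these libraries. Replicate numbers did not pair the libraries.

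The members and the lists were chosen with earlier results of these data known. The rule for named genes took all 10 members, FTO and ALKBH5, the 4 called genes with the smallest p in each list, called genes of a direction taken by 3 or fewer, the tested genes beside each member and the 5 nearest profiles to CDH2 and CDH1. Exceptions are marked, and some genes that the rule takes are not reported here. Alternatives were RLE size factors, spike-in scaling (GFP and FLuc), no filter, a mean CPM of at least 5, DESeq2 1.42.0, limma 3.58.1 voom, a replicate block, and leaving out each library.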

Additional observations from a re-analysis of the deposited data

How the results depend on the processing

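Members called numbered 6 in all alternatives but 2. With a mean CPM of at least 5, CDH1, EPCAM and SNAI1 were not tested and 4 of 7 were called, and without double knockout replicate 3 there were 7, as ZEB1 passed (-0.20, range over left-out libraries -0.20 to -0.10). The 6 calls of members kept their direction wherever they were tested. TWIST1 turned to -0.069 and ZEB2 to -0.052 with spike-in scaling, and over left-out libraries TWIST1 ranged from -0.20 to 0.15 and ZEB2 from -0.023 to 0.11, both without a call. Spike-in scaling shifted the median of all genes by -0.11, and called 2133 genes higher and 4236 lower, against 4055 and 4038 with TMM. Over all genes the calls ranged from 6165 with DESeq2 to 8109 with the replicate block, which kept 6 members called. Same-numbered libraries had correlations of deviations of 0.0106, 0.0166 and 0.0085. Called other cadherins were 7 with a mean CPM of at least 5, 5 with DESeq2 and, over left-out libraries, 7 to 11, against 11. With DESeq2 other EMT factors had 3 called against 8 and TGF-beta genes 5 against 8, and with the CPM minimum mesenchymal genes had 9 against 15. The difference of CTNNB1 from its neighbours was -0.037 with 10 Mb windows and -0.036 without a filter, and without a filter those of TWIST1 and ZEB2 were -0.034 and -0.016. Over left-out libraries PXDNL ranged from -0.15 to 0.14 and TCF7L1 from -0.060 to 0.28, none of them called. Of 80 other named genes 17 lost a call in at least 1 alternative. The cause was not tested.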

Other observations

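Across the 6 libraries, the genes whose centred log2 CPM profile lay nearest to that of CDH2 among 11815 genes with a mean of at least 5 CPM were ARAP2, GAREM2, CAV2, SERINC2 and JUND. Their Euclidean distances were 0.118 to 0.154, and they rose by 1.04, 1.10, 1.03, 0.92 and 1.01 on the log2 scale (edgeR, each called). They lie on chromosomes 4, 2, 7, 1 and 19, none on that of CDH2. The nearest to CDH1 were ZNHIT2, TCEAL3, TCF7L1, AC106782.2 and UNC93B1, at distances of 0.335 to 0.436, and the profile they share is a high value in double knockout replicate 3. With 2 groups, a short distance mostly repeats the fold change.

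Within 5 Mb of CTNNB1 on chromosome 3, ZNF502 had a log2 fold change of -5.67 and STAC one of 2.12, both called and both named after their values were seen. Within 5 Mb of CDH2, AC018697.1 rose by 2.96 and CABYR by 1.41, likewise named after their values were seen.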
